A study of Mus musculus with 22 samples.

Results

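The genes that carry cisplatin into and out of kidney cells were followed in RNA-Seq libraries from 22 mouse kidneys. The set holds 8 of the 32858 genes in the count table and was chosen by gene symbol: the organic cation transporters Slc22a2 and Slc22a3, the copper transporters Slc31a1 and Slc31a2, the extrusion transporters Slc47a1 and Slc47a2, and the copper pumps Atp7a and Atp7b. The kidneys came from male C57Bl6/J mice aged 8 to 10 weeks, 1 library per mouse. The vehicle group (n = 5) received neither drug, and the carrier of KW6002 was a mixture of DMSO, cremophor, and saline. The KW6002 group (n = 6) received this adenosine receptor antagonist, also called istradefylline, at 3 mg/kg intraperitoneally each day from day -5 to day 7. The cisplatin group (n = 5) received 6 daily intraperitoneal injections of cisplatin at 3 mg/kg, beginning on day 0, and the remaining group (n = 6) received both drugs on these schedules. Whether mice given only cisplatin also received the KW6002 carrier is not stated in the labels. Cisplatin-treated animals were killed 72 hours after their last injection. The labels name no genetic alteration, and bulk kidney RNA does not separate cell types.

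Cisplatin is a small platinum drug that reaches the proximal tubule from the blood, and this part of the nephron is the main site of its renal toxicity. Slc22a2 encodes OCT2, an organic cation transporter of the basolateral membrane that takes up cisplatin, and Slc22a3 encodes its relative OCT3. Slc31a1 encodes CTR1, the high-affinity copper importer that has been linked to platinum uptake, and Slc31a2 encodes CTR2, a related protein of intracellular membranes that has been linked to lower platinum accumulation. Slc47a1 encodes MATE1, which moves organic cations across the apical membrane into the tubular fluid in exchange for protons, and Slc47a2 encodes a second MATE protein. Atp7a and Atp7b encode copper-transporting ATPases of the secretory pathway, which export copper and have been linked to platinum sequestration and export. The study reported that KW6002 raised RNA of several efflux transporters in kidney, and checked Slc47a1 and Abcc2 by quantitative PCR. It also measured platinum and efflux in cultured renal tubule cells. Platinum in kidneys was measured in mice of its LLC1 tumor model rather than in the protocol described here. The comparisons ask which transporter transcripts differed with cisplatin and with the addition of KW6002.

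Total counts ran from 26471762 to 40510754 per library. Levels are given as CPM, the usual rate of counts relative to the library total, with totals scaled by trimmed mean of M values (TMM) factors. Before this scaling, 3 counts in the shallowest library correspond to 0.113 CPM. All 8 genes passed the filter on low counts, as did 17131 genes of the table. The mice carry numbers in the 300s (3 vehicle and 3 KW6002) or 500s (2 vehicle, 3 KW6002, and all cisplatin-treated animals); what the number series stands for is not stated in the labels. Defining markers of the kidney were present in every group, and the summed CPM of 8 proximal tubule markers lay between 20583 and 21877 in the 5 vehicle kidneys.

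The genes lie in 3 neighbouring pairs and at 2 single loci of the mm10 assembly. Slc22a3 (ENSMUSG00000023828, chr17:12418960-12507704, minus strand) and Slc22a2 (ENSMUSG00000040966, chr17:12584132-12628488, plus strand) are 76427 bases apart and face away from each other. Slc31a2 (ENSMUSG00000066152, chr4:62262562-62298411) and Slc31a1 (ENSMUSG00000066150, chr4:62360727-62391769) lie on the plus strand with 62315 bases between them. Slc47a2 (ENSMUSG00000069855, chr11:61301631-61342860) and Slc47a1 (ENSMUSG00000010122, chr11:61343401-61378345) lie on the minus strand, 540 bases apart. Atp7a (ENSMUSG00000033792) is at chrX:106027276-106124926 on the plus strand, and Atp7b (ENSMUSG00000006567) is at chr8:21992785-22060305 on the minus strand.

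In the first and second pair the neighbours changed in opposite directions with cisplatin, so sequence from the 250 bases before the RefSeq start of these 4 genes is shown, without bases that GENCODE places in an exon. These were 57 bases of Slc22a2 itself, which GENCODE starts upstream of RefSeq, and 98 bases of Fkbp15, which runs from the opposite strand beside Slc31a1. The RefSeq start of Slc31a2 lies within the longer GENCODE gene. Sequences are 5′ to 3′ on the strand of each gene in GRCm38.p6, at chr17:12583939-12584131 for Slc22a2 (plus strand), chr17:12507705-12507954 for Slc22a3 (minus strand), chr4:62360549-62360700 for Slc31a1 (plus strand), and chr4:62286179-62286428 for Slc31a2 (plus strand). Capitals mark matches to the motifs searched.
Slc22a2: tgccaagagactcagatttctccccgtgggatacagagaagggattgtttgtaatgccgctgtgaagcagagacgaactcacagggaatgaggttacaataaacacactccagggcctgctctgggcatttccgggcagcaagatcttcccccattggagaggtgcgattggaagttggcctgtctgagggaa
Slc22a3: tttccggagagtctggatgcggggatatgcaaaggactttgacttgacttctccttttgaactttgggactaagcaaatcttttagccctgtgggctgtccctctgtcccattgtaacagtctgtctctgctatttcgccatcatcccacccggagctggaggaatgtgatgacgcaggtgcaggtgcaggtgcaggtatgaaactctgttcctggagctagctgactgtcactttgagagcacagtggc
Slc31a1: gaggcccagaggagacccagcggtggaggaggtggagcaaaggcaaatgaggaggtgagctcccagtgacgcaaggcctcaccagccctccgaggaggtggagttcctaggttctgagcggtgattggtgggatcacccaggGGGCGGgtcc
Slc31a2: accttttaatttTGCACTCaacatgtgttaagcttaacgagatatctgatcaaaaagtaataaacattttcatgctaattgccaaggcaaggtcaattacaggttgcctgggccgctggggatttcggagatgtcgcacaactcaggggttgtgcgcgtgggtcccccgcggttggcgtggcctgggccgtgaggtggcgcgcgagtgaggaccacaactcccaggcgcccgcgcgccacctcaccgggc

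Motifs were searched on both strands of the full windows of 250 bases. These were the GC box GGGCGG, the TATA box TATAAA, the partial HNF1 site GTTAAT, and the metal response element core TGCACNC or TGCGCNC. Slc22a2 and Slc22a3 held none of these letters in their windows, Slc31a1 held 1 GC box at positions -10 to -5 from the start, and Slc31a2 held 1 metal response element core at -238 to -232. Of the other members with a window, Slc47a2 held 2 GC boxes and 1 metal response element core, Atp7a held 1 GC box and 2 metal response element cores, and Atp7b held 1 metal response element core. Slc47a1 was not matched in the RefSeq table. Of all 32851 windows of this length, 32.7% held a GC box, 12.4% a TATA box, 6.43% the partial HNF1 site, and 21.4% a metal response element core. GC content was 51.6% for Slc22a2, 51.2% for Slc22a3, 62.8% for Slc31a1, and 56.0% for Slc31a2, beside a median of 52.4% over all windows. The letters are a description of the sequence, and binding was not measured.

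In vehicle kidneys the extrusion transporter Slc47a1 was the most abundant of the 8 transcripts per kilobase of exon, at 229.6 ± 5.74 CPM per kb (SD, n = 5). Slc22a2 followed at 143 ± 8.46, Slc31a1 at 62.4 ± 1.79, and Slc31a2 at 10.2 ± 0.652 CPM per kb, with no overlap between neighbours in this order. Atp7a stood at 2.99 ± 0.302 and Atp7b at 1.07 ± 0.163 CPM per kb, again without overlap. Slc22a3, at 0.448 ± 0.244 CPM per kb, and Slc47a2, at 0.262 ± 0.0762 CPM per kb, were the lowest, and their ranges of 0.144 to 0.764 and 0.16 to 0.364 overlapped. Together the 8 genes held 0.136% of the counts of the vehicle libraries.

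Cisplatin was accompanied by lower transcript levels of the main uptake and extrusion carriers of the tubule and by higher levels of Slc22a3 and Slc31a2. Slc47a1, Slc22a2, Slc31a1, Slc47a2, and Atp7b fell, Slc22a3 and Slc31a2 rose, and Atp7a did not pass the threshold of an adjusted p below 0.05. Thus, 5 of 8 members were called lower, where 35.9% of all genes tested were called lower, and 2 of 8 were called higher, where the share of all genes was 34.6%. The median log2 fold change of the members was -0.58, and that of all genes tested was -0.012. The stricter call, which asks for at least a 2-fold difference (1 on the log2 scale) and an adjusted p under 0.01, took in 24.1% of all genes and 3 members, Slc47a1, Slc22a2, and Slc22a3. Among the mice numbered in the 500s alone, which leaves 2 vehicle kidneys, the log2 fold changes with cisplatin were -1.92 for Slc47a1, -1.72 for Slc22a2, -0.83 for Slc31a1, and 0.59 for Slc31a2, and these calls held. In vehicle kidneys the means of the 300s and the 500s were 343 and 373 CPM for Slc22a2 and 764 and 797 CPM for Slc47a1. They were 21.4 and 19.6 CPM for Slc31a2 and 2.69 and 1.01 CPM for Slc22a3. Values of 3 and 2 mice can fall apart by chance, and the share of all genes that did so was not counted.

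**Figure D1:**
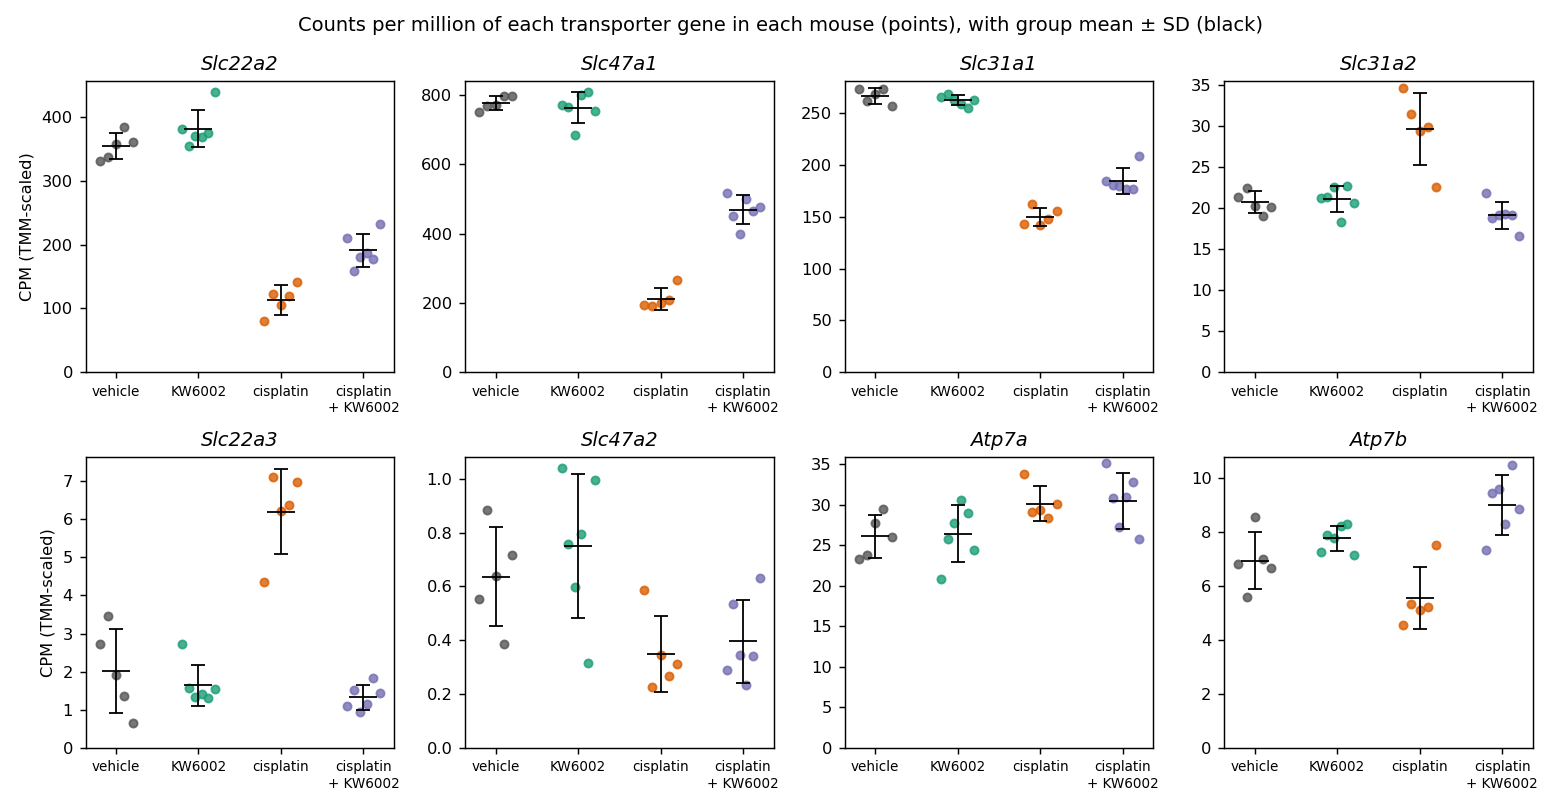
CPM (y axis from 0, scale set per gene) of each of the 8 transporter genes by group (x axis), with 1 point per mouse and the group mean ± SD in black. Slc47a1 sits between 752 and 797 CPM with vehicle and between 192 and 266 CPM with cisplatin, whereas Slc22a3 rises from at most 3.45 CPM to at least 4.34 CPM.

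Slc22a2, the basolateral entry route, measured 331, 338, 358, 385, and 360.5 CPM in the 5 vehicle kidneys and 79.4, 122, 105, 119, and 142 CPM in the 5 cisplatin kidneys. With cisplatin plus KW6002 the lowest, median, and highest values were 158, 184, and 232 CPM. The 3 groups did not overlap, and every kidney given both drugs lay above every kidney given cisplatin and below every vehicle kidney. The transcript was 3.13-fold lower with cisplatin than with vehicle (log2 fold change -1.65, SE 0.11, adjusted p = 1.44e-11) and 1.69-fold higher with both drugs than with cisplatin (0.76, SE 0.11, adjusted p = 3.94e-06). In bulk kidney, fewer cells of a type and less RNA per cell cannot be told apart, which holds for all levels given here.

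Slc47a1, the apical exit route, showed the largest fall of the 8 genes with cisplatin by the fitted log2 fold change. Vehicle kidneys measured 752, 767, 771, 796, and 797 CPM, and cisplatin kidneys measured 193, 192, 199, 207, and 266 CPM. With both drugs the lowest, median, and highest values were 399.7, 472, and 518 CPM, so that these groups also did not overlap. The level was 3.67-fold lower with cisplatin (log2 fold change -1.88, SE 0.08, adjusted p = 5.64e-15) and 2.22-fold higher with both drugs than with cisplatin (1.15, SE 0.08, adjusted p = 6.81e-11). Per kilobase, the ratio of Slc47a1 to Slc22a2 in a kidney was 1.61 ± 0.0625 with vehicle, 1.4 ± 0.235 with cisplatin, and 1.82 ± 0.218 with both drugs, and the ranges of these ratios overlapped between the cisplatin group (1.16 to 1.78) and the other groups.

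Slc31a1, the copper importer, fell less. It measured 274, 262, 269, 274, and 257 CPM with vehicle and 143, 162, 142, 148, and 156 CPM with cisplatin, whereas the lowest, median, and highest values with both drugs were 177, 180.5, and 209 CPM. No kidney of 1 group reached the range of another group among these 3. The level was 1.78-fold lower with cisplatin than with vehicle (log2 fold change -0.83, SE 0.05, adjusted p = 7.19e-13) and 1.23-fold higher with both drugs than with cisplatin (0.30, SE 0.05, adjusted p = 1.03e-05). The ratio of Slc47a1 to Slc31a1 per kilobase was 3.68 ± 0.165 with vehicle (range 3.47 to 3.93), 1.78 ± 0.238 with cisplatin (1.5 to 2.16), and 3.22 ± 0.33 with both drugs (2.8 to 3.58), so that the cisplatin kidneys lay below all others in this ratio.

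Markers of the proximal tubule moved with these 3 transporters. The summed CPM of the 8 markers was 3228 to 5295 with cisplatin and 9157 to 13308 with both drugs, and none of the 8 was at 0 in any group. All 8 markers fell with cisplatin (median log2 fold change -2.92) and all 8 rose with the addition of KW6002 (median 1.75). Relative to 1000 reads of these markers, Slc22a2 stood at 16.6 ± 0.806 with vehicle, 27.7 ± 2.26 with cisplatin, and 18.3 ± 0.912 with both drugs. Slc47a1 stood at 36.4 ± 1.13, 52.3 ± 5.8, and 45.3 ± 5.88, and Slc31a1 at 12.5 ± 0.262, 37.5 ± 5.27, and 17.8 ± 1.78 in the same order. In each of the 3 genes the lowest cisplatin kidney lay above the highest vehicle kidney on this scale, the reverse of the direction in CPM. Every other member also had its lowest cisplatin kidney above its highest vehicle kidney, for example Atp7a, at 1.22 ± 0.104 and 7.62 ± 1.81. For Slc22a3, Slc31a2, and Atp7a the log2 fold change of CPM with cisplatin was already positive, so their direction was not reversed. The marker sum fell by a larger factor than any member, so a higher value per marker read follows from the denominator and is not particular to these 3 genes. The part of the marker change in the transporter changes was not tested.

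**Figure D2:**
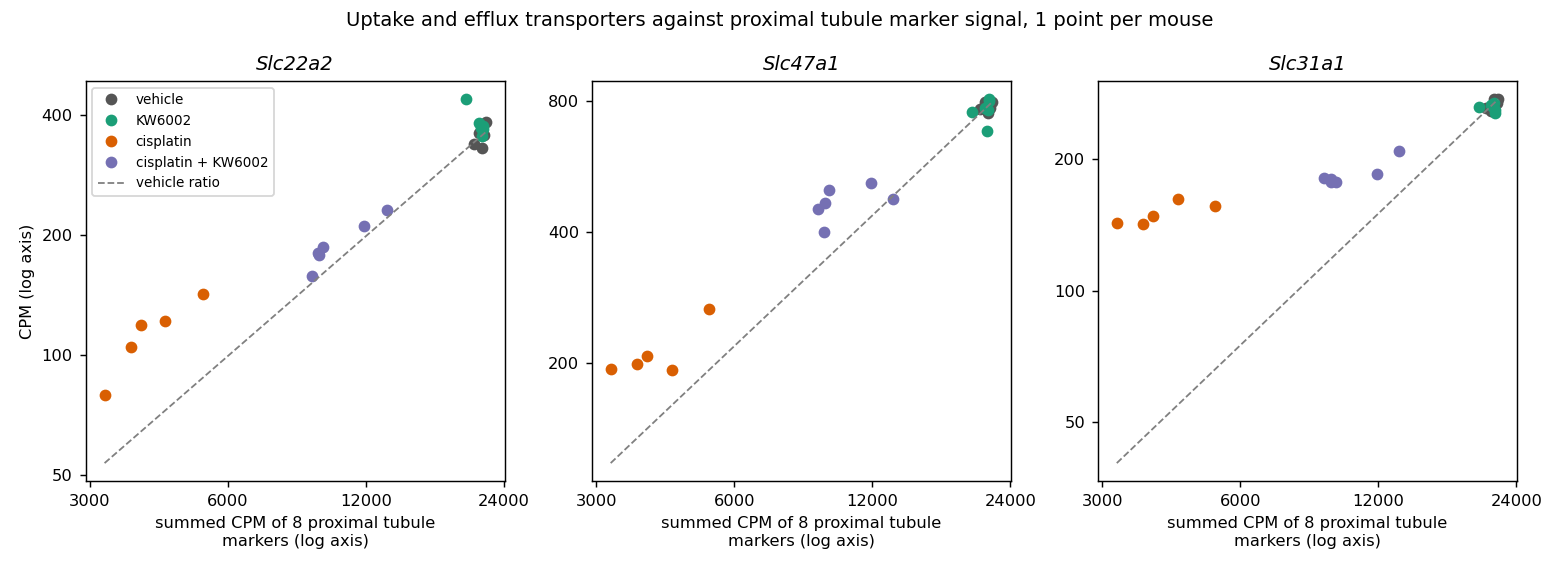
CPM of Slc22a2, Slc47a1, and Slc31a1 (y axis, log scale) against the summed CPM of 8 proximal tubule markers (x axis, log scale), with 1 point per mouse coloured by group and a dashed line at the mean vehicle ratio. All 5 cisplatin kidneys lie above the line in each plot, farthest for Slc31a1, at marker sums of 3228 to 5295 CPM.

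Slc22a3, encoding OCT3, was scarce without cisplatin and rose with it. Vehicle kidneys measured 2.72, 3.45, 1.92, 1.37, and 0.651 CPM (20 to 86 counts), and cisplatin kidneys measured 4.34, 7.11, 6.21, 6.37, and 6.97 CPM (163 to 283 counts). With both drugs the lowest, median, and highest values were 0.926, 1.3, and 1.82 CPM, below every cisplatin kidney and within the vehicle range. The rise was 3.08-fold (log2 fold change 1.62, SE 0.29, adjusted p = 2.99e-05), and the level was 4.66-fold lower with both drugs than with cisplatin (-2.22, SE 0.28, adjusted p = 6.07e-07). The 3 vehicle kidneys numbered in the 300s averaged 2.69 CPM and the 2 in the 500s averaged 1.01 CPM, with no overlap. Among mice numbered in the 500s alone the log2 fold change of cisplatin against vehicle was 2.62 (adjusted p = 5.45e-07). Slc22a3 shares 420 exon bases with Plg on the opposite strand, where strand use in counting is not given in the sources used here, and Plg had 245 counts in all libraries together.

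Slc31a2, encoding CTR2, also rose. It measured 21.4, 22.5, 20.3, 19.0, and 20.1 CPM with vehicle and 34.6, 31.5, 29.4, 29.9, and 22.6 CPM with cisplatin, and the lowest, median, and highest values with both drugs were 16.6, 19.2, and 21.9 CPM. Cisplatin replicate 5, the lowest of its group, lay just above the highest vehicle kidney, and the group given both drugs overlapped vehicle. The level was 1.43-fold higher with cisplatin than with vehicle (log2 fold change 0.52, SE 0.09, adjusted p = 1.7e-05) and 1.55-fold lower with both drugs than with cisplatin (-0.63, SE 0.08, adjusted p = 1.42e-06). Because the copper importer fell while its relative rose, the ratio of Slc31a1 to Slc31a2 per kilobase went from 6.17 ± 0.472 with vehicle to 2.46 ± 0.489 with cisplatin and stood at 4.63 ± 0.7 with both drugs.

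Marker sums of fibroblasts and injured tubules were higher with cisplatin and lower again with both drugs, as were Slc22a3 and Slc31a2. Median sums of some other cells moved the same way, with overlapping vehicle and cisplatin ranges. With vehicle, cisplatin, and both drugs they were 386.3, 489, and 358.7 CPM for endothelium and 122.2, 134.6, and 84.4 CPM for macrophages. For fat they were 65.7, 146.5, and 21.1 CPM, and for neutrophils 3.63, 4.02, and 2.89 CPM. T cell and B cell sums were lower with cisplatin. The summed CPM of 4 fibroblast markers was 114 to 248 with vehicle, 534.5 to 745 with cisplatin, and 216 to 391 with both drugs, and that of 4 injured tubule markers was 16.8 to 23.1, 1288 to 2423, and 352 to 752. The sum of 3 fat markers was 28.8 to 350.5 with vehicle, 129.7 to 233 with cisplatin, and 3.14 to 84.1 with both drugs. The cisplatin values thus lay within the vehicle range, and 0 of 3 passed the threshold with cisplatin. On adding KW6002 all 3 were called lower (median log2 fold change -2.8), where 27.2% of all genes tested were called lower. The sum of 4 macrophage markers was 118 to 179 with vehicle, 127 to 163 with cisplatin, and 71.4 to 101 with both drugs, and with cisplatin 1 marker was higher and 2 were lower. T cell markers summed to 1.16 to 3.43, 0.186 to 0.425, and 0.464 to 1.09, and B cell markers to 1.43 to 2.17, 0.826 to 1.12, and 0.721 to 1.65, in the same order. No marker of these lists was at 0 throughout a group, and their part in the changes of Slc22a3 and Slc31a2 was not tested.

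Slc47a2, the second MATE gene, was near the limit of the counts. It had between 8 and 37 counts per library, at 0.635 ± 0.184 CPM with vehicle and 0.348 ± 0.141 CPM with cisplatin, and the groups overlapped. Its log2 fold change with cisplatin was -0.86 (SE 0.33, adjusted p = 0.0243), and this call was lost without vehicle replicate 2 (-0.72, adjusted p = 0.0702), cisplatin replicate 2 (-0.73, adjusted p = 0.0654), or cisplatin replicate 4 (-0.78, adjusted p = 0.0563). With both drugs against cisplatin the value was 0.19 (SE 0.33, adjusted p = 0.649), with a 95% confidence interval of -0.49 to 0.87.

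Atp7a, the copper pump that serves most tissues outside the liver, ranged from 23.3 to 29.5 CPM with vehicle, from 28.3 to 33.8 CPM with cisplatin, and from 25.8 to 35.2 CPM with both drugs. The groups overlapped, and the log2 fold change with cisplatin was 0.21 (SE 0.10, adjusted p = 0.0557). This value passed the threshold when vehicle replicate 4 (0.25, adjusted p = 0.0276), KW6002 replicate 1 or 4, or replicate 1 or 6 of the group given both drugs was left out. Between both drugs and cisplatin the difference was 0.02 (95% confidence interval -0.17 to 0.20, adjusted p = 0.896).

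Atp7b, the related pump known from copper handling in the liver, measured 6.83, 5.61, 8.57, 7.01, and 6.67 CPM with vehicle and 4.56, 5.35, 5.12, 5.22, and 7.53 CPM with cisplatin. With both drugs the lowest, median, and highest values were 7.35, 9.16, and 10.5 CPM, and cisplatin replicate 5 was the only cisplatin kidney within that range. The decrease with cisplatin was 1.25-fold (log2 fold change -0.32, SE 0.12, adjusted p = 0.024), and the level was 1.62-fold higher with both drugs than with cisplatin (0.70, SE 0.12, adjusted p = 2.89e-05). The call of the decrease was lost without vehicle replicate 3 (-0.24, adjusted p = 0.0943), cisplatin replicate 1 (-0.26, adjusted p = 0.0758), cisplatin replicate 3 (-0.29, adjusted p = 0.0565), or cisplatin replicate 4 (-0.30, adjusted p = 0.0522). The ratio of Atp7a to Atp7b per kilobase was 2.83 ± 0.34 with vehicle, 4.17 ± 0.911 with cisplatin, and 2.56 ± 0.546 with both drugs.

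Adding KW6002 to cisplatin moved 6 of the 8 transcripts. Slc47a1, Slc22a2, Slc31a1, and Atp7b were higher than with cisplatin alone, 4 of 8 members beside 28.6% of all genes tested, and Slc22a3 and Slc31a2 were lower, 2 of 8 members beside 27.2%. The median over the members was 0.24, and that over all genes tested was 0.005. The stricter call took in 2 members, Slc47a1 and Slc22a3, beside 10.3% of all genes.

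**Figure D3:**
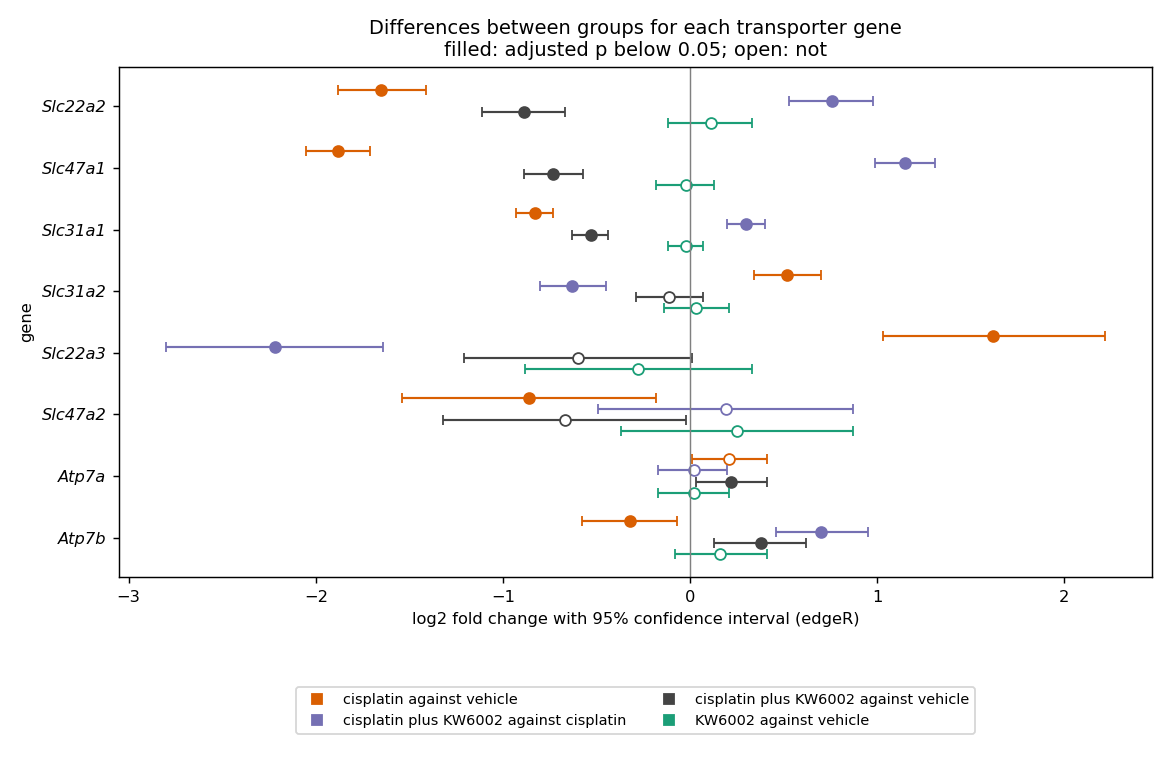
Log2 fold change (x axis) of each transporter gene (y axis) in 4 comparisons, with bars for the 95% confidence interval and filled symbols for an adjusted p below 0.05. Slc22a2, Slc47a1, and Slc31a1 lie below 0 with cisplatin and above 0 on adding KW6002, Slc22a3 and Slc31a2 show the opposite pair of signs, and KW6002 alone has no filled symbol.

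KW6002 given without cisplatin left all 8 transcripts under the threshold. Called members numbered 0 of 8 by edgeR, where 0.0175% of all genes tested were called in either direction, and DESeq2 also called 0. No member had an unadjusted p below 0.05, and the smallest was 0.185, for Atp7b. Slc22a2 measured from 355 to 439 CPM with KW6002 (log2 fold change 0.11, 95% confidence interval -0.12 to 0.33), Slc47a1 from 684 to 809 CPM (-0.02, interval -0.18 to 0.13), and Slc31a1 from 255 to 269 CPM (-0.02, interval -0.12 to 0.07). For Slc22a3 and Slc47a2 the intervals were wider, from -0.88 to 0.33 and from -0.37 to 0.87.

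The effect of KW6002 with cisplatin differed from its effect without cisplatin for 6 members by the interaction term. The difference of log2 fold changes was 1.17 for Slc47a1 (SE 0.11, adjusted p = 2.38e-08), 0.65 for Slc22a2 (SE 0.15, adjusted p = 0.00151), 0.54 for Atp7b (SE 0.17, adjusted p = 0.0121), and 0.32 for Slc31a1 (SE 0.07, adjusted p = 0.000386). It was -1.94 for Slc22a3 (SE 0.40, adjusted p = 0.000524) and -0.66 for Slc31a2 (SE 0.12, adjusted p = 0.000125). Thus 4 of 8 members had a positive called difference, beside 22.8% of all genes, and 2 of 8 a negative one, beside 19.9%. The stricter call took in 2 members, Slc47a1 and Slc22a3, beside 8.58% of all genes.

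Kidneys given both drugs still differed from vehicle kidneys in the 3 carriers with the highest levels per kilobase. Slc22a2 was 1.85-fold lower (log2 fold change -0.89, SE 0.11, adjusted p = 2.55e-07), Slc47a1 was 1.66-fold lower (-0.73, SE 0.08, adjusted p = 2.83e-08), and Slc31a1 was 1.45-fold lower (-0.53, SE 0.05, adjusted p = 1.78e-09). These 3 of 8 members stood beside 29.9% of all genes called lower. Slc31a2 (-0.11, 95% confidence interval -0.29 to 0.07, adjusted p = 0.28) and Slc22a3 (-0.60, interval -1.21 to 0.01, adjusted p = 0.0861) did not pass the threshold. The value of Slc22a3 changed sign with the vehicle mice used: it was 0.40 (adjusted p = 0.279) among mice numbered in the 500s, 0.01 with the number series as a covariate, and -0.83 (adjusted p = 0.0074) without vehicle replicate 5. The stricter call took in 0 members by edgeR, beside 13.4% of all genes.

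The copper pumps were called higher with both drugs than with vehicle, 2 of 8 members beside 29.8% of all genes. Atp7b was 1.3-fold higher (log2 fold change 0.38, SE 0.12, adjusted p = 0.00867), and Atp7a was 1.17-fold higher (0.22, SE 0.09, adjusted p = 0.0399), with overlapping groups for both. The call for Atp7a was lost when vehicle replicate 1, 2, or 5 or replicate 1, 2, 4, or 5 of the group given both drugs was left out. Among mice numbered in the 500s neither call held, with 0.40 for Atp7b (adjusted p = 0.0506) and 0.13 for Atp7a (adjusted p = 0.336). Slc47a2, at -0.67 (SE 0.31, adjusted p = 0.0705), passed the threshold without vehicle replicate 4, KW6002 replicate 5, or replicate 6 of the group given both drugs.

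Other carriers of organic cations and carnitine, the family of Slc22a2, numbered 4 tested genes, of which 3 fell and 1 rose with cisplatin, where 35.9% of all genes tested were called lower and 34.6% higher. The median log2 fold change with cisplatin was -0.76 over the tested genes of this list, -0.23 over copper genes, and 0.53 over other platinum drug routes, beside -0.012 over all genes tested, and on adding KW6002 these medians were -0.06, -0.16, and -0.45, beside 0.005. Of 6 listed genes, Slc22a16 was not found by symbol in the count table and Slc29a4 did not pass the filter. On adding KW6002 1 of the 4 rose, 2 fell, and 1 did not pass, where 28.6% of all genes were called higher and 27.2% lower. Slc22a18, a transporter of imprinted expression, went from 546 ± 14.7 CPM with vehicle to 78.4 ± 16.7 CPM with cisplatin and stood at 356 ± 39.9 CPM with both drugs. Slc22a5, the carnitine transporter OCTN2, fell with cisplatin (log2 fold change -0.33, adjusted p = 9.43e-05) and was lower still on adding KW6002 (-0.19, adjusted p = 0.0142). Slc22a4, encoding OCTN1, fell (-1.18, adjusted p = 5.7e-12) and measured 0.06 on adding KW6002 (adjusted p = 0.507). The gene that rose with cisplatin was Slc22a21, a carnitine transporter, which then fell on adding KW6002 (-0.52, adjusted p = 0.000418).

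Of 16 genes for copper chaperones, carriers, and reductases, all tested, 5 rose and 8 fell with cisplatin and 3 did not pass, whereas on adding KW6002 5 rose, 7 fell, and 4 did not pass. The shares of all genes called higher and lower were 34.6% and 35.9% with cisplatin and 28.6% and 27.2% on adding KW6002. Mt1, a metallothionein that binds copper, zinc, and platinum, went from 55.3 ± 6.78 to 781 ± 112 CPM with cisplatin and stood at 310.3 ± 56.7 CPM with both drugs. Cp, the plasma copper oxidase ceruloplasmin, went from 80.0 ± 18.4 to 498 ± 31.3 CPM and stood at 369.9 ± 73.2 CPM. Steap2, a metalloreductase that reduces copper and iron, went from 174 ± 12.9 to 399 ± 53.0 CPM and stood at 259 ± 48.1 CPM. Sod1, a superoxide dismutase that holds copper, fell (log2 fold change -0.70, adjusted p = 2.02e-09) and rose on adding KW6002 (0.36, adjusted p = 4.21e-05). Named after their values were seen, the 5 genes that rose with cisplatin were Mt1, Mt2, Cp, Steap2, and the copper chaperone Atox1, all of which fell on adding KW6002. The 5 that rose on adding KW6002 were Sod1, the divalent metal importer Slc11a2, Cox11, Sco1, and Commd1, all of which had fallen with cisplatin.

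Of 11 genes for other routes of platinum drugs, all tested, 9 rose and 1 fell with cisplatin, and on adding KW6002 2 rose, 6 fell, and 3 did not pass. Over all genes tested, the higher and lower calls with cisplatin took in 34.6% and 35.9%, and those on adding KW6002 28.6% and 27.2%. Abcc2, the apical export pump MRP2, went from 639 ± 45.1 CPM with vehicle to 1114 ± 113 CPM with cisplatin and was higher again with both drugs, at 1516 ± 227 CPM (log2 fold change against cisplatin 0.45, SE 0.10, adjusted p = 0.000614). Abcg2, an export pump of the apical membrane, rose from 493 ± 22.9 to 665 ± 47.5 CPM and stood at 462 ± 19.0 CPM. Tmem205, a membrane protein linked to platinum resistance, rose from 123 ± 9.41 to 178 ± 25.6 CPM and stood at 124 ± 9.66 CPM. Lrrc8d, a subunit of volume-regulated anion channels that admit cisplatin, was the gene that fell, from 137 ± 10.5 to 118 ± 9.31 CPM, and stood at 129 ± 11.3 CPM. Named after its values were seen, the second gene that rose on adding KW6002 was the export pump Abcb1a, at 11.5 ± 1.2 CPM with cisplatin and 22.7 ± 1.79 CPM with both drugs.

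**Figure D4:**
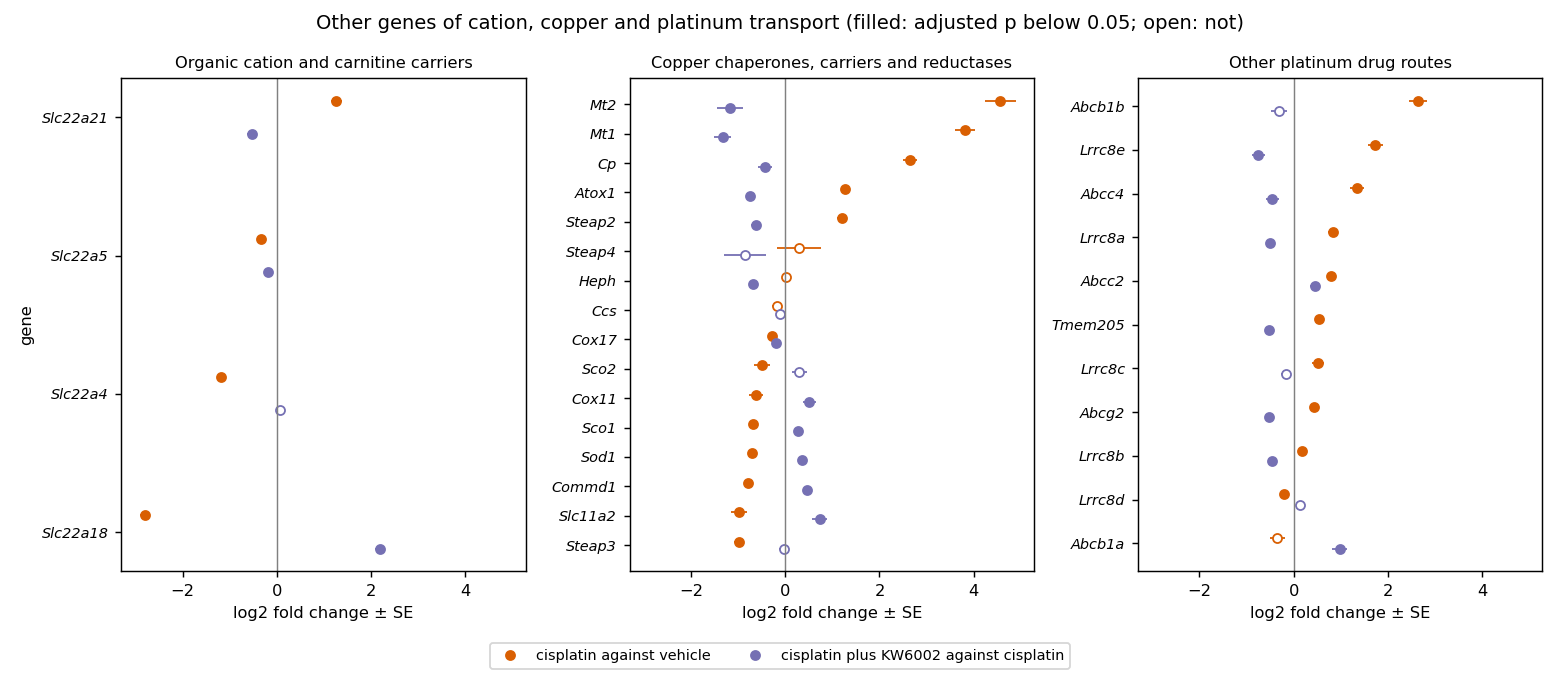
Log2 fold change ± SE (x axis) of the tested genes of 3 lists (y axis, ordered by the cisplatin difference) for cisplatin against vehicle and for cisplatin plus KW6002 against cisplatin, with filled symbols for an adjusted p below 0.05. Slc22a18 is the lowest with cisplatin and Mt2 the highest, and Abcc2 lies above 0 in both comparisons.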

How the data were processed

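The deposited values are whole-number read counts, made by the authors from polyadenylated kidney RNA by mapping single reads to mm10 with STAR and counting them per gene with HTSeq (0.6.1p1, per the submitters' processing notes); they had not been normalized. The 66 unnamed empty columns were not used. Groups follow the labels, each library is a separate mouse, and p-values measure the spread between these mice. Symbols and positions came from GENCODE M21 and promoter windows from RefSeq (GRCm38.p6). Genes were kept that had a CPM of 0.306 (10 counts at the median library size) in 5 or more libraries and a summed count of 15 or more, which left 17131 genes with 99.9% of the counts. edgeR 4.0.16 in R 4.3.3 was used with TMM factors, 1 mean per group over all 22 libraries, and quasi-likelihood F tests with Benjamini-Hochberg adjustment over all genes tested; the common dispersion was 0.0168. A call is an adjusted p below 0.05, and the stricter call follows the study (adjusted p under 0.01, log2 difference over 1). DESeq2 1.42.0, other scaling, filters, samples, and covariates were tried as alternatives, and the code was tested on simulated data. The floor of 3 counts covers counting error only. Every member was named, and of each pathway list the 4 tested genes with the highest mean CPM; 1 gene of the cation carrier list is not reported here. The members and lists were chosen with earlier results of these data known.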

Additional observations from a re-analysis of the deposited data

Results flagged for a closer look

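In 5 of the 32 sets of 1 gene in 1 group, a single mouse stood apart by Dixon's test at the 95% level, which chance flags in about 1 in 20 groups. Slc22a2 reached 439 CPM in KW6002 replicate 6, and Slc22a3 reached 2.72 CPM in KW6002 replicate 1. Slc31a1 reached 209 CPM in replicate 6 of the group given cisplatin plus KW6002. Cisplatin replicate 5 held both other values, 266 CPM for Slc47a1 and 7.53 CPM for Atp7b, and it also had the highest proximal tubule marker sum of its group, 5295 CPM. In each case the mouse was the highest of its group.

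The effect of KW6002 on the log2 scale differed between mice with and without cisplatin, by the interaction term of the edgeR fit, for 6 members. The differences were 1.17 for Slc47a1, 0.65 for Slc22a2, 0.54 for Atp7b, 0.32 for Slc31a1, -0.66 for Slc31a2, and -1.94 for Slc22a3. Over all genes tested, 22.8% had a positive called difference and 19.9% a negative one.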

How the results depend on the processing

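Across 9 alternative settings, 324 member values kept their direction and side of the threshold, 10 lost a call, 4 gained one, and 9 uncalled values changed sign. Across 22 refits that each left out 1 mouse, the numbers were 832, 14, 9, and 25, and no called member changed sign. The calls for Slc22a2, Slc47a1, Slc31a1, Slc31a2, and Slc22a3 with cisplatin and on adding KW6002 held under every alternative run at an adjusted p below 0.05. Under the stricter call (adjusted p under 0.01, log2 difference over 1), members called numbered 3 (from 7) for cisplatin against vehicle, 2 (from 6) for both drugs against cisplatin, 0 (from 5) for both drugs against vehicle, and 2 (from 6) for the interaction. With only mice numbered in the 500s, 3 members were called for both drugs against vehicle, and Atp7b lost its interaction call (0.50, adjusted p = 0.0811).

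Scaling by library size alone moved the median of all genes to 0.204 for cisplatin against vehicle and 0.155 for both drugs against vehicle. Under it, Atp7b lost its cisplatin call (-0.11, adjusted p = 0.429), as did Slc47a2 (-0.64, adjusted p = 0.0875), and Atp7a was called (0.43, adjusted p = 0.000559). Slc47a2 also lost its cisplatin call with the number series as a covariate (-0.71, adjusted p = 0.103) and among mice numbered in the 500s (-0.68, adjusted p = 0.221), and it was not tested when 10 counts were required in every library. Atp7b lost its cisplatin call when 2 groups were fitted alone (-0.32, adjusted p = 0.0738) and among mice numbered in the 500s (-0.31, adjusted p = 0.111), and it was -0.46 without cisplatin replicate 5. Atp7a gained the cisplatin call with relative log expression factors (0.22, adjusted p = 0.049) and when 2 groups were fitted alone (0.21, adjusted p = 0.0241), and its call for both drugs against vehicle was lost with the number series as a covariate (0.13, adjusted p = 0.294).

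Values that changed sign were all uncalled. With library size alone these were Atp7a for both drugs against cisplatin (-0.04) and Slc31a2 for both drugs against vehicle (0.05). For the Atp7a interaction the value was 0.01 without a filter, 0.02 with the number series as a covariate, and 0.01 among mice numbered in the 500s, and Atp7a for KW6002 against vehicle was 0.00 with the covariate. Slc22a3 for both drugs against vehicle was 0.01 with the covariate and 0.40 among mice numbered in the 500s, where KW6002 against vehicle was 0.49. With 1 mouse left out, sign changes lay within these ranges: Atp7a for KW6002 against vehicle (-0.03 to 0.08), for both drugs against cisplatin (-0.03 to 0.06), and for the interaction (-0.06 to 0.05); Slc47a2 for both drugs against cisplatin (-0.01 to 0.46) and for the interaction (-0.26 to 0.21); and Slc47a1 for KW6002 against vehicle (-0.04 to 0.01). The cause of these changes was not tested.

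Same-numbered mice of different groups had a median correlation of deviations of 0.00846 over 31 pairs, beside -0.00142 for other pairs. Single pairs ran from -0.175 to 0.405, with 7 over 0.1, so the median shows no general pairing by number but cannot exclude it for some mice. With the replicate block, Slc47a2 for both drugs against vehicle passed the threshold (-0.82, adjusted p = 0.0261), which made 6 members called, and no other member's call changed. For KW6002 against vehicle over all genes, edgeR called 3, DESeq2 99, the number series covariate 40, and mice numbered in the 500s 8, with 0 members under each. Slc47a2 had 8 to 37 counts per library, which limits the precision of its values.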

Other observations

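For each member, the 3 genes of at least 3 on the average log2 CPM scale whose log2 CPM over the 22 libraries was most like it were listed by Pearson's r, as a description. The libraries share groups, so that r rests on the group differences, and the correlation of deviations from the group means is given beside it. Slc31a1 was most like Pcca (r = 0.995, within groups 0.84), a subunit of propionyl-CoA carboxylase, Idh2 (0.994, 0.82), and Acat1 (0.994, 0.82). Slc22a2 was most like Them7 (0.993, 0.89), 0610006L08Rik (0.991, 0.85), and Pecr (0.99, 0.85), an enzyme of fatty acid metabolism. Slc47a1 was most like Pepd (0.996, 0.84), a dipeptidase, Lactb2 (0.995, 0.83), and Mtfp1 (0.994, 0.81).

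The other members were less closely matched. Slc22a3 was most like Spc25 (r = 0.938, within groups 0.74), a kinetochore subunit, Smc4 (0.928, 0.68), a condensin subunit, and Pgm1 (0.909, 0.65). Spc25 averaged 21.7 CPM with vehicle, 48.5 CPM with cisplatin, and 19.8 CPM with both drugs. Slc31a2 was most like C2cd2 (0.932, 0.75), Tpra1 (0.924, 0.66), and Cep192 (0.92, 0.77), a centrosomal protein. Atp7b was most like Cfap65 (0.916, 0.78), Slc6a13 (0.911, 0.76), a transporter of GABA and taurine, and Hdgf (0.891, 0.67), and the level of Slc6a13 went from 167 CPM with vehicle to 96.5 CPM with cisplatin and 232 CPM with both drugs. Atp7a was most like Cltc (0.869, 0.80), the clathrin heavy chain, and Slc47a2 most like Sirt7 (0.761, 0.58).

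Among the members themselves, Slc22a2 had an r of 0.98 with Slc31a1 and of 0.96 with Slc47a1 over the 22 libraries, and of 0.62 and 0.54 within groups. Slc31a2 and Atp7b had an r of -0.85, and of -0.67 within groups.

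Marker sums of other nephron segments and cells differed in direction. The S3 segment list of 4 genes ran from 1072 to 1497 CPM with vehicle, 101 to 165 CPM with cisplatin, and 255 to 382 CPM with both drugs. With cisplatin 3 of its genes fell and 1 did not pass, and on adding KW6002 3 rose and 1 fell. The thick ascending limb list of 3 genes ran from 4534 to 7569, 1964 to 2279.8, and 2293 to 4137 CPM, and the distal convoluted tubule list of 3 genes from 1589 to 1654, 45.6 to 90.7, and 156 to 383 CPM, in the same order. The intercalated cell list of 4 genes ran from 242 to 286.5, 111 to 156, and 180.2 to 239 CPM, and the podocyte list of 3 genes from 99.3 to 145, 94.9 to 103, and 94.7 to 110.5 CPM. Of the podocyte genes, 1 rose and 2 fell with cisplatin. The list of 4 collecting duct principal cell genes was higher, from 279 to 514.5 CPM with vehicle, 511 to 769 CPM with cisplatin, and 413 to 771.5 CPM with both drugs, the vehicle and cisplatin ranges overlapping, and with cisplatin 1 of its genes rose, 1 fell, and 2 did not pass. Outside the nephron, the endothelial list of 4 genes, whose vehicle and cisplatin ranges overlapped, ran from 363 to 406, 371 to 507, and 336 to 391 CPM.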
